A study of Mus musculus with 4 samples.

Results

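The genes described here are 37 effector genes of mature myeloid cells, the products with which neutrophils, monocytes and macrophages sense, bind and kill microbes. They were examined in hematopoietic stem cells (HSCs), which make few of these products. The 37 members were chosen by name, and all 37 were found once in the GENCODE M21 annotation, against 21755 protein-coding genes on the autosomes and chromosome X. Clec7a is annotated there as a polymorphic pseudogene and is absent from that total. For each member, peaks of open chromatin were collected over the gene body and 10 kb on each side. These windows held 69 of 37887 WT peaks and 69 of 37615 KO peaks, which fell into 83 separate regions.

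The assay was ATAC-seq, which uses a transposase to tag DNA that is not wrapped up in closed chromatin. The cells were bone marrow HSCs of C57BL/6 mice, sorted as lineage-negative, Sca-1+, c-Kit+ cells that were CD150+ and CD48-, with CD34- added in the labels. Both genotypes carried floxed Med23, which encodes a subunit of the Mediator complex. WT mice lacked cre. KO mice carried Mx1-cre, whose promoter responds to interferon and was induced with poly(I:C), so deletion is not limited to stem cells. The paper's blood counts were of WT and KO mice that had both received poly(I:C). Its ATAC-seq methods do not say whether the WT mice of these samples did. Age beyond adult is not given. There were 4 samples, 2 for each genotype, of 5000 sorted cells each, but both samples of a genotype were represented by 1 peak list. No difference between WT and KO therefore has a replicate check, and whether the reads of the replicates were pooled is not stated. Since the cells were measured in bulk, fewer cells with an open site and a less open site in each cell cannot be told apart.

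Read totals are unknown. The height of each peak, its summit pileup, was recovered from the deposited fold enrichment and −log10 p, and its median was 18 (WT list) and 19 (KO list). The lowest pileup at which a peak was called was 6 for each list, so a locus with no peak may still hold a few reads. At Med23 itself the only peak was at the promoter, with a pileup of 64 in WT and 85 in KO, and whether the deleted part includes it is not given in the sources used here, so it does not test the labels. Of a list of stem cell loci, which includes Kit, Ly6a, Slamf1, Procr, Mecom and Hlf, 12 of 12 had a peak within 10 kb in both lists. The share over all protein-coding genes was 72.9%, and 11 of 12 loci of myeloid transcription factors also had one in both lists.

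As background, HSCs are multipotent, and the enzymes of mature granulocytes are normally made only after commitment to the myeloid lineage. Primary granule proteins appear at the promyelocyte stage, and secondary and tertiary granule proteins later. PU.1 and the C/EBP family are the transcription factors best known for switching such genes on. An open site in a stem cell at a gene that is used only later is often called primed, and what was asked here is at which of these genes a site was open in the WT list, in the KO list, in both or in neither.

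Of the 37 members, 15 had a promoter peak in both lists, 3 in WT alone, 1 in KO alone and 18 in neither. A promoter peak had its summit within 1000 bp of an annotated start of the gene. Among all protein-coding genes, 58.1% had a promoter peak in both lists, 3.07% in WT alone, 2.69% in KO alone and 36.2% in neither. The 15 were Lyz2, Cd14, Fcgr1, Fcgr3, Cyba, Ncf1, Ncf4, Lyn, Tlr2, Tlr4, Myd88, Anxa1, Mgst1, Cd33 and Igsf6. Most of these encode receptors, signaling proteins or oxidase subunits. None of the 11 members grouped here with the primary, secondary or tertiary granules was among them, and Lyz2 was grouped with the lysosomal genes. This absence depends on the distance, since with 2500 bp Elane, Prtn3 and Mmp9 had a promoter peak in both lists. Over the whole window, 30 members had a peak in both lists and 7 in neither, and 0 had peaks in 1 list only. The shares over all protein-coding genes were 72.9% in both, 22.5% in neither, 2.71% in WT alone and 1.94% in KO alone.

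**Figure D1:**
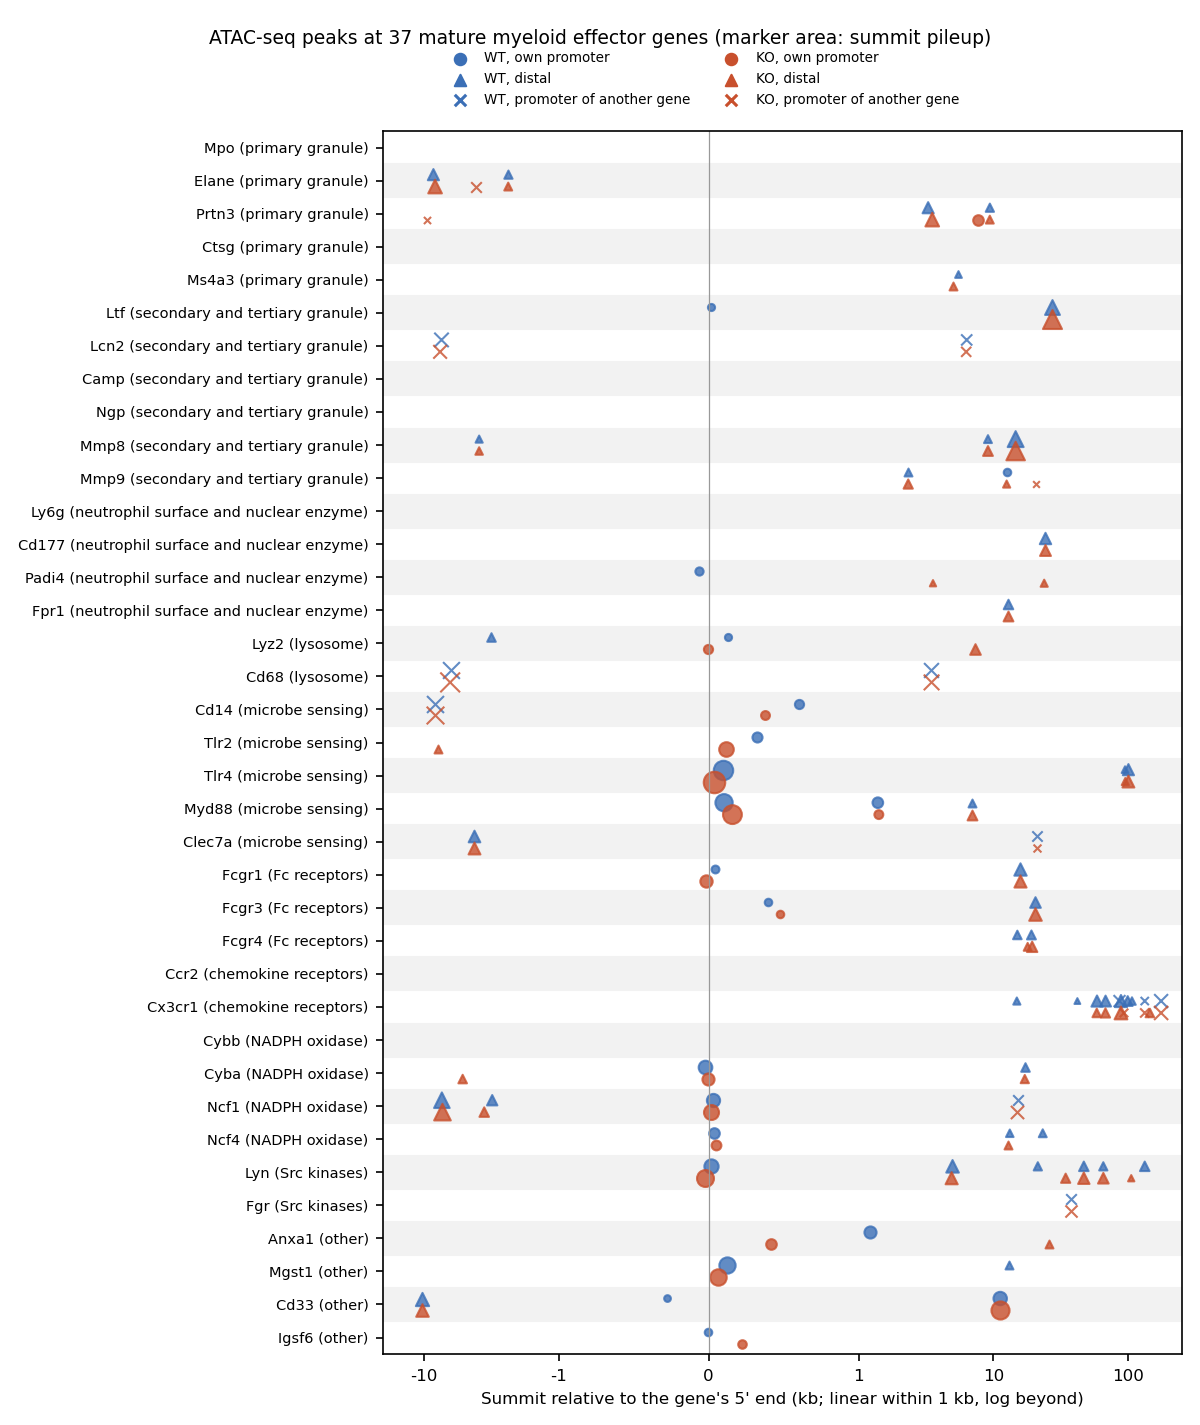
Position of every peak in the windows of the 37 members, grouped by role. The horizontal axis is the distance of the summit from the 5′ end of the gene in kb (linear within 1 kb, logarithmic beyond), blue marks are WT peaks and red marks KO peaks, and marker area grows with summit pileup. The rows of Mpo, Ctsg, Camp, Ngp, Ly6g, Ccr2 and Cybb are empty, and the largest promoter marks are at Tlr4, Myd88, Cd33, Lyn and Mgst1.

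Of the 30 members with any peak, 11 had none at their own promoter. At 3 of these, Lcn2, Cd68 and Fgr, every peak in the window lay at the promoter of another gene, so no peak was theirs alone. At the other 8 the window held a distal peak. Elane and Prtn3 are neighbours whose windows share peaks, and shared peaks were counted once in all totals over peaks.

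The 2 highest promoter peaks were at genes that sense microbes. Tlr4, the receptor for bacterial lipopolysaccharide, had a promoter pileup of 67 in WT and 82 in KO (chr4:66827192-66828535, mm10). The log2 KO to WT ratio, taken over each list's background, was 0.38 (95% exact binomial interval −0.11 to 0.86). Intervals given here cover counting error only. Myd88, the adaptor on which most Toll-like receptors signal, had 2 promoter regions near different annotated starts. The higher, near the 5′ end, had 53 in WT and 63 in KO, and the other, 1.39 kb (WT) and 1.42 kb (KO) into the gene, had 20 and 14. Both also lay within 1000 bp of a start of Acaa1a. Cd14, which hands lipopolysaccharide to the Toll-like receptor, had 15 in WT and 14 in KO. Its summits were 605 and 373 bp downstream of the 5′ end, inside an exon.

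Tlr2, the receptor for bacterial lipoproteins, had a promoter pileup of 18 in WT and 38 in KO (chr3:83841129-83841757). Its ratio was 1.16 on the log2 scale (interval 0.32 to 2.06). The KO list also had a peak of pileup 11 located 7826 bp upstream, at which the WT list had none. Clec7a, which encodes the β-glucan receptor Dectin-1, had no promoter peak but a site 4.21 kb (WT) or 4.22 kb (KO) upstream, with 24 in WT and 25 in KO. A second peak in its window, at the promoter of Clec1a, had 19 in WT and 11 in KO.

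The Fc receptors bind antibody-coated particles. Fcgr1, the high-affinity receptor for IgG, had the largest KO to WT ratio of any member region. Its promoter pileup was 11 in WT and 27 in KO (chr3:96293301-96294212). The log2 ratio was 1.38 (interval 0.32 to 2.54). A second site of Fcgr1, 15.8 kb downstream of the start, had 27 in WT and 26 in KO (log2 ratio 0.03, interval −0.80 to 0.86). Fcgr3 had a low promoter peak, 10 in each list, within an intron and 398 to 479 bp past the 5′ end. From the 5′ end that RefSeq gives, the summits lay 1378 bp (WT) and 1459 bp (KO) away. A start of Mir6546 was also within 1000 bp of them. Its distal site, 20.3 kb (WT) and 20.4 kb (KO) past the 5′ end, had 20 in WT and 28 in KO. Fcgr4 had no promoter peak. Downstream of it the WT list had a peak of 13 and the KO list one of 11 at separate positions, and a shared region had 14 and 19.

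The sequences below are the parts of promoter peaks that lie outside annotated exons, within 100 bp of the summit of the higher peak, from GRCm38.p6 on the plus strand. Each is the highest promoter region of its role group for which at least 60 such bases were left, and they show what was open at these starts. Capitals mark matches on either strand to 1 of 5 motifs. The letters GAGGAAG stood for sites of the factor PU.1, and TTGCNNAA stood for those of the C/EBP family, called CEBP here. For the Runt-domain factors, called RUNX, the letters were TGTGGTT. The zinc finger factors of the Gata family were represented by AGATAA, while TGANTCA was taken for Jun and Fos dimers, called AP1. Tlr4 and Fcgr1 each held 1 PU.1 match in these bases and Lyz2 a RUNX match. A match describes letters and not a bound site.
Tlr4 chr4:66827520-66827583: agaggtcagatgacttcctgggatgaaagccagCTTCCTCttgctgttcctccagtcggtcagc
Fcgr1 chr3:96293970-96294084: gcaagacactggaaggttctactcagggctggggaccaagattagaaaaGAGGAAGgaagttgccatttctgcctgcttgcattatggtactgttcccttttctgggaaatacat
Lyz2 chr10:117282322-117282425: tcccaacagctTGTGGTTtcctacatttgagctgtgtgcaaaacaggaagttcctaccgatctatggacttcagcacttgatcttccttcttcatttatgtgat
Ncf1 chr5:134229626-134229706: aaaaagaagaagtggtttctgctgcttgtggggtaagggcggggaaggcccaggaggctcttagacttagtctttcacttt
Cd33 chr7:43533172-43533269: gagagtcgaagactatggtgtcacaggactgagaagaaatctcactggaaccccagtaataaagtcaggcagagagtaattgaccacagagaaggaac

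The NADPH oxidase makes superoxide in phagocytes and is built from a membrane pair, Cybb (gp91phox) and Cyba (p22phox), and cytosolic subunits including Ncf1 (p47phox) and Ncf4 (p40phox). Its members were not alike. Cyba, Ncf1 and Ncf4 had promoter peaks in both lists, whereas Cybb had no peak in its window in either list and its nearest summits were 155 kb (WT) and 153 kb (KO) from its 5′ end. The promoter pileup of Cyba was 33 in WT and 26 in KO. At the Ncf1 promoter it was 31 and 40. Ncf4 had 20 and 17. None of these 3 ratios differed from the median ratio of all regions beyond counting error. Ncf1 had a further high site 7.35 kb (WT) and 7.27 kb (KO) upstream, with 43 in WT and 49 in KO.

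Lyn, a Src-family kinase that acts below Fc and integrin receptors, had a promoter pileup of 36 in WT and 51 in KO (log2 ratio 0.59, interval −0.06 to 1.25). Its gene record is 135 kb long, and 5 distal peaks were called in each list within it. Of these, 3 regions were shared, 2 peaks were in WT alone and 2 in KO alone. The shared site 4.98 kb (WT) and 4.9 kb (KO) into the gene had 28 in WT and 26 in KO, and that at 46.8 kb had 16 and 23. A shared site 65.2 kb (WT) and 65.3 kb (KO) into the gene had 12 in WT and 20 in KO. The peaks in WT alone had 12 and 16, and those in KO alone 15 and 7. Fgr, the kinase of the same family that is most restricted to myeloid cells, had no peak of its own. The only peak in its window was at the promoter of Ahdc1, with 20 in WT and 26 in KO.

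Of the 11 granule genes, 0 had a promoter peak in both lists at the 1000 bp distance and 3 had one in a single list. In the window, 7 had some peak in both lists and 4 had none. Mpo (myeloperoxidase) and Ctsg (cathepsin G) of the primary granules had no peak in the window in either list. The nearest summit to the 5′ end of Mpo was 14.9 kb away in WT and 33.8 kb in KO, and that to Ctsg 160 kb and 182 kb. Elane (neutrophil elastase) and Prtn3 (proteinase 3) lie side by side on chromosome 10 and shared 2 distal regions. The higher of these is in an intron of the Prtn3 record (chr10:79877283-79878222) and reached 22 in WT and 33 in KO. On the log2 scale the ratio was 0.67 (interval −0.15 to 1.52). The other, between the genes, had 12 and 11. Prtn3 was the only member with a promoter peak in the KO list only. That peak, of pileup 20, lay in an exon 7694 bp past the 5′ end and 387 bp from the start of an internal transcript, and 2503 bp from the 5′ end that RefSeq gives. Ms4a3, a marker of granulocyte and monocyte progenitors, had 1 intronic region with 8 in WT and 11 in KO.

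Among the secondary and tertiary granule genes, Camp (the cathelicidin) and Ngp (neutrophilic granule protein) had no peak in the window. Their nearest summits were 11.4 to 13.3 kb from the 5′ end. Ltf, the iron-binding lactoferrin, had a promoter peak of pileup 9 in the WT list, 13 bp from its 5′ end, and none in the KO list. The same gene had a high site 27.1 kb from the 5′ end, beyond its 3′ end, with 39 in WT and 64 in KO (chr9:111046155-111046630). The log2 ratio there was 0.80 (interval 0.20 to 1.41). The promoter peak of Ltf was thus in WT alone while its downstream site was higher in KO, and a pileup of 9 is close to the lowest that was called.

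Mmp8 (neutrophil collagenase) had no promoter peak and 3 distal regions, each in both lists. Their pileups were 9 in WT and 10 in KO, 11 and 17, and 45 and 61, the last past the end of Mmp8 in an intron of its neighbour Mmp27 (chr9:7572488-7573385). Mmp9 (gelatinase B) was counted as a promoter peak in the WT list only because of the distance rule. A shared region at an internal start had 10 in WT and 9 in KO, with the WT summit 976 bp and the KO summit 1072 bp from that start. Its other shared site, 2.31 kb (WT) and 2.34 kb (KO) into the gene, had 11 and 15. Lcn2, the siderophore-binding lipocalin, had 2 shared regions in its window, both at promoters of other genes (1110008P14Rik and Ptges2).

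The distal sites of the granule genes with the highest pileups are shown next, 200 bp around the summit of the higher peak on the plus strand, with the same 5 motifs in capitals. The Ltf site held 2 PU.1 matches and the site shared by Elane and Prtn3 held 2 RUNX matches. The Mmp8 site held none of the 5.
Ltf chr9:111046281-111046480: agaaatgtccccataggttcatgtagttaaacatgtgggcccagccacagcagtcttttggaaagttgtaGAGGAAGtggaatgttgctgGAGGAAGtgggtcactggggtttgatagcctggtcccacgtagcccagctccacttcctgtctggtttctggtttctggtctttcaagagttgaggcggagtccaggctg
Elane and Prtn3 chr10:79877896-79878095: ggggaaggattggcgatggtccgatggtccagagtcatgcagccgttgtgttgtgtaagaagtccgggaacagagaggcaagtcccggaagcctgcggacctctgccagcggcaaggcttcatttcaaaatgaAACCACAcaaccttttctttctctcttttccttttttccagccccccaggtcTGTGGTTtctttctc
Mmp8 chr9:7572973-7573172: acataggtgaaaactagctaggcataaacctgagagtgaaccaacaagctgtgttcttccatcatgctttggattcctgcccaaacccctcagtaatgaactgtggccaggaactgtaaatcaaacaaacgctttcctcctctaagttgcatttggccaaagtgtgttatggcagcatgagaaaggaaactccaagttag

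The next group of neutrophil genes encodes surface proteins and a nuclear enzyme. Ly6g, the antigen recognized by the common neutrophil antibody, had no peak in the window, and its nearest summits were 68.4 kb and 68.5 kb away. Ly6g belongs to a family of similar genes, and how reads that match several of them were treated is not given in the sources used here. Cd177 had 1 intergenic site, 24.1 kb (WT) and 24.2 kb (KO) from its 5′ end, with 23 in WT and 21 in KO. Fpr1, the receptor for bacterial formyl peptides, had 1 intergenic site with 16 and 17. Padi4, which citrullinates histones during release of neutrophil extracellular traps, had a promoter peak of 12 in the WT list, 66 bp upstream of the 5′ end, and none in the KO list. The KO list instead had 2 low peaks inside the gene, of 9 and 7, that the WT list lacked.

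The window of open bases at the Padi4 start, seen in the WT list only, held 1 AP1 match outside exons.
Padi4 chr4:140774237-140774401: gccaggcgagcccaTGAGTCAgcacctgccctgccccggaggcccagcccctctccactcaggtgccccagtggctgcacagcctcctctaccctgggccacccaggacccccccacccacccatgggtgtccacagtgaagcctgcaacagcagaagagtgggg

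Of the lysosomal genes, Lyz2, whose product lysozyme M cuts bacterial cell walls, had a low promoter peak of 9 in WT and 15 in KO (log2 ratio 0.82, interval −0.46 to 2.20). A peak of 13 upstream was found in WT alone and another of 20, 7272 bp from the 5′ end, in KO alone. Cd68, a macrophage lysosomal glycoprotein, had no peak of its own, and the 2 regions in its window were at the promoters of Mpdu1 and Eif4a1. Of the chemokine receptors of monocytes, Ccr2 had no peak in the window and its nearest summits were 33.4 kb away in both lists. Cx3cr1 had no promoter peak. Its GENCODE record spans 168 kb and takes in other genes, and some of its 10 WT and 7 KO peaks are at the promoters of those. Over the 19.6 kb of the RefSeq gene and 10 kb on each side, the WT list had a peak and the KO list had none. That WT peak was intronic, 14.9 kb from the 5′ end, with a pileup of 9.

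The remaining members had open promoters. Cd33, a sialic acid-binding inhibitory receptor, had its main region at an annotated start 11.3 kb past the 5′ end of the GENCODE record (chr7:43532238-43533583). The pileup there was 32 in WT and 58 in KO, and the log2 ratio was 0.94 (interval 0.30 to 1.61). At the 5′ end itself the WT list had a peak of 8 and the KO list none. An upstream site of Cd33 at 10.3 kb had 31 in WT and 28 in KO. Mgst1, a microsomal glutathione transferase, had 47 and 48. Anxa1, which restrains neutrophil recruitment, had 26 and 20 in 1 region, with the WT summit 1223 bp and the KO summit 413 bp past the 5′ end. Igsf6 had 10 and 13 at its start, and a start of Mettl9 also lay within 1000 bp of each summit.

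Sites away from the promoter were seen at most of these open genes too. The window of Cd14 also took in the promoter of Tmco6, with 51 in WT and 55 in KO. Tlr4 had 2 shared intronic regions far into its record, with 8 in WT and 9 in KO and with 22 and 25. That record is 103 kb long in GENCODE and 19.0 kb in RefSeq, and both regions lay beyond the end of the RefSeq gene. The Myd88 window had a site with 11 and 17 in an intron of another gene, Slc22a14. The Ncf1 window had a site 3.11 kb (WT) and 3.57 kb (KO) upstream with 19 and 16, and the promoter of Gtf2ird2 with 20 and 31. The Cyba window had a site with 13 and 12 in introns of Zc3h18 and Gm20388. Ncf4 had a site in its own intron with 10 and 11. Single low peaks were present in KO alone at Cyba (13) and Anxa1 (11), and in WT alone at Ncf4 (11) and Mgst1 (11). In none of the shared regions of this paragraph did the ratio pass the 1.5-fold rule given below.

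**Figure D2:**
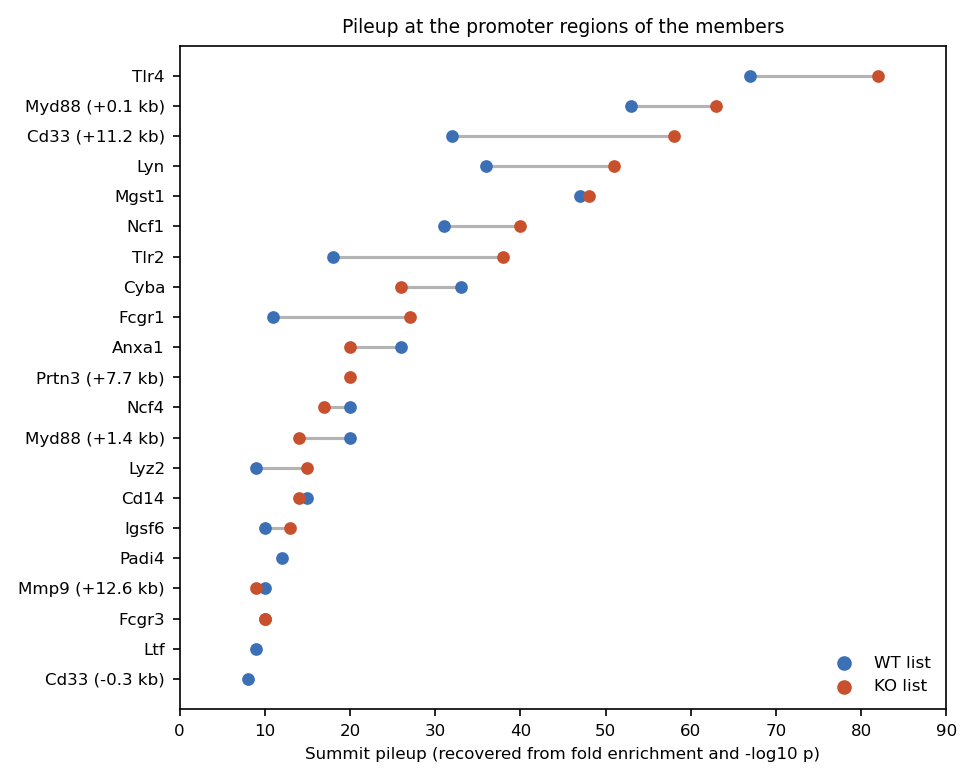
Summit pileup in the WT list (blue) and the KO list (red) at each promoter region of the members, with a grey line joining the peaks of a shared region. Offsets in kb from the 5′ end are given where a gene has several promoter regions or its region is far from the 5′ end. The longest distances between WT and KO are at Cd33 (32 and 58), Tlr2 (18 and 38) and Fcgr1 (11 and 27).

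The KO to WT ratio could be formed in 55 member regions with 1 peak of each list and in 28909 such regions overall. Its median was 0.24 over the members and 0.17 over all regions on the log2 scale, so 0.17 is the level against which a member was read. A region was called when it lay at least 1.5-fold above or below that median. On this rule 6 of 55 member regions were higher in KO (7.63% of all regions were) and 3 of 55 were lower (7.91% of all regions). The 6 were the promoters of Fcgr1, Tlr2, Cd33 and Lyz2, the site past the end of Ltf and the Lyn site described above. The 3 were the inner Myd88 region (log2 ratio −0.43), the Clec1a promoter in the Clec7a window (−0.70) and a site in the Cx3cr1 record 58.6 kb (WT) and 58.4 kb (KO) from its 5′ end (−0.67).

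In 4 of 55 member regions the exact interval lay wholly above the median ratio, which was so in 1.91% of all regions. These 4, at Fcgr1, Tlr2, Cd33 and Ltf, were among the 6 higher calls. In 0 of 55 member regions did it lie wholly below, against 1.54% of all regions. When the authors' fold enrichment, which divides by the local background, replaced the pileup ratio, 3 of the 6 higher calls were kept (Fcgr1, Tlr2 and Lyz2). On that scale, whose median was 0.26, the log2 ratio was 0.70 at Cd33, 0.63 at Ltf and 0.74 at Lyn, under the fold required. The Eif4a1 promoter in the Cd68 window (0.87) was called higher there and the Ncf4 promoter (−0.36) lower. Of the 3 lower calls, 2 were kept and the Myd88 call (−0.28) was not. By class, the median log2 ratio was 0.34 over 17 promoter regions, 0.25 over 28 distal regions and 0.21 over 10 regions at promoters of other genes. Over all regions it was 0.10 at promoters and 0.22 at distal sites.

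**Figure D3:**
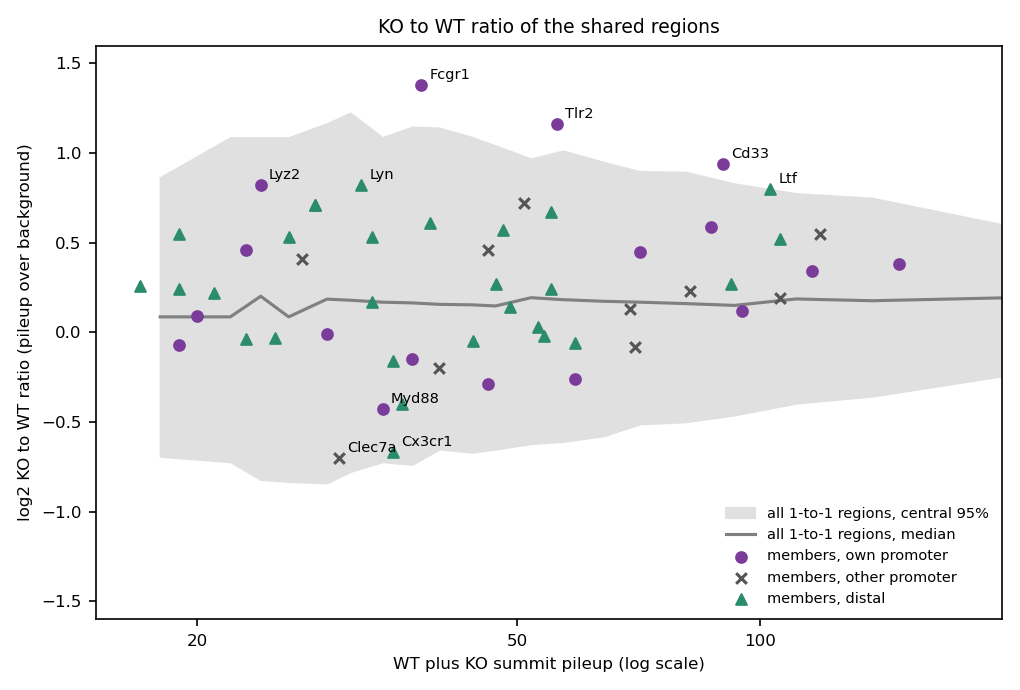
The log2 KO to WT ratio (vertical axis) of the 55 shared member regions against the sum of their WT and KO summit pileups (log scale). Circles are promoters of members, triangles distal sites and crosses promoters of other genes, the grey band holds the central 95% of all 28909 regions at that pileup and the grey line is their median. Fcgr1, Tlr2 and Cd33 lie above the band, Ltf at its upper edge, and the other member regions lie within it where it is drawn.

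Of 69 WT peaks in the windows, 55 (79.7%, 95% Wilson interval 68.8 to 87.5) had a KO partner. The 69 KO peaks gave the same number and share. Over all peaks the shares were 78.3% of WT peaks and 79.3% of KO peaks. The shares over all peaks are not split by class here, so the counts by class that follow have no like share beside them. Among distal member peaks, 28 of 38 WT peaks and 29 of 39 KO peaks overlapped. The long Cx3cr1 record, which takes in other genes, supplied 7 of these WT peaks and 4 of these KO peaks. The distal peaks without a partner had a median pileup of 11.5 in WT and 11.0 in KO and reached 17 and 20. Of 20 WT promoter peaks, 3 had no KO partner, those of Ltf, Padi4 and the 5′ end of Cd33, and of 17 KO promoter peaks 1 had no WT partner, that of Prtn3. Windows were covered by more bases in KO at 14 members, by fewer at 16 and equally at the 7 with no peak. Over all genes the shares were 38.2% covered more and 39.2% covered less. The median difference was 0 bp over the members and 0 bp over all genes.

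The same counts were made for other gene groups. A promoter peak in both lists was found at 9 of 12 stem cell loci, 10 of 12 loci of myeloid transcription factors, 12 of 36 other myeloid effector loci, 5 of 13 erythroid effector loci and 2 of 16 lymphoid effector loci. For the members it was 15 of 37. Neither list had a promoter peak at 18 of 37 members, 15 of 36 other myeloid effector loci, 13 of 16 lymphoid loci, 7 of 13 erythroid loci, 3 of 12 stem cell loci and 1 of 12 transcription factor loci. These are counts over short lists, and the differences between lists were not tested.

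**Figure D4:**
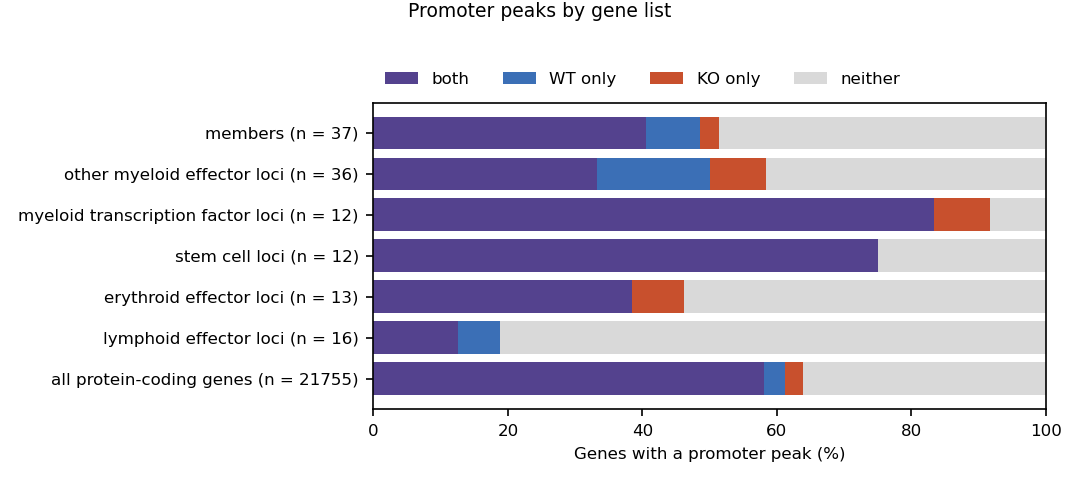
Share of genes (%) with a promoter peak in both lists, in only 1 of them or in neither, for the 37 members, 5 other gene lists and all 21755 protein-coding genes. The bar of the members shows 40.5% in both lists, against 58.1% of all protein-coding genes, 33.3% of the other myeloid effector loci and 12.5% of the lymphoid loci.

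Most of the members measured were low in a sequence feature that their choice did not use. CpG dinucleotides are depleted in most of the genome and kept at the promoters of broadly used genes, and their content was measured in the 300 bases from 250 before to 50 after a RefSeq start, the nearest to the 5′ end of those in the promoter table. That table does not hold every start. For 6 of the 31 members measured the start used lay over 1000 bp from the 5′ end. These were Cybb (18447 bp), Cd33 (11257 bp), Fcgr3 (5532 bp), Prtn3 (5191 bp), Cx3cr1 (1583 bp) and Myd88 (1393 bp). At Fcgr3 and at Prtn3 the bases measured are therefore not those of the promoter peak. The observed over expected CpG ratio had a median of 0.179 over the 31 protein-coding members with a promoter in the table, and 0.604 over 16433 protein-coding genes. Among genes with a promoter peak in both lists, the median was 0.263 over 11 members and 0.769 over all genes. Among genes with a peak in neither, it was 0.127 over 17 members and 0.190 over all genes. Mgst1 (0.607) and Myd88 (0.613) had the highest ratios among the members, and Fcgr1 (0.0631) and Lyz2 (0.0680) the lowest of those open in both lists. Where the start used lay within 1000 bp of the 5′ end, the median was 0.157 over 25 members and 0.649 over 14226 genes. The ratio was not taken for the other gene lists, so whether it is particular to the members was not tested.

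Members were also set beside all genes of the same CpG class. At a ratio up to 0.2, 4 of 16 members (25.0%) had a promoter peak in both lists, against 13.0% of all genes of that class. Between 0.2 and 0.4 it was 5 of 12 (41.7%) against 32.5%. The class from 0.4 to 0.6 held 1 member, which was not open, against 64.7% of all genes. Above 0.6, 88.0% of all genes had one, but only 2 members, both open, were in that class. The lower share of open promoters over the whole list (40.5% against 58.1%) thus stood beside the low CpG content of the members measured. Their relation was not tested. The share covers 37 members and the CpG content 31. Tlr4, Lyn, Ncf4 and Cd14, all open in both lists, were among those not measured.

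**Figure D5:**
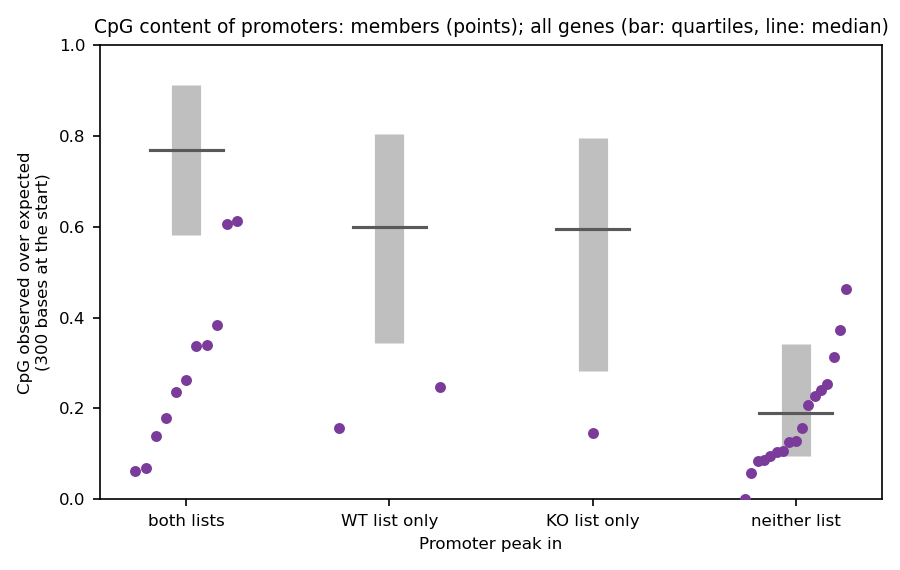
Observed over expected CpG ratio in the 300 bases at the gene start (vertical axis), by the lists in which the promoter had a peak. Points are the 31 protein-coding members with a RefSeq promoter, spread sideways for sight only, grey bars run from the lower to the upper quartile of all protein-coding genes and dark lines are their medians. The 11 members open in both lists lie between 0.0631 and 0.613, mostly below the grey bar of their state.

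Motif letters in these 300 bases were counted on both strands. None of the 5 patterns contains another. PU.1 letters were present in 12 of 31 members (38.7%) and in 13.1% of all protein-coding genes, and CEBP letters in 10 of 31 (32.3%) and 10.0%. RUNX, GATA and AP1 letters were in 6.45%, 12.9% and 9.68% of members, against 4.78%, 9.67% and 7.0% of all genes. The PU.1 and CEBP letters were not limited to open promoters. Of the 17 members with a promoter peak in neither list, 8 held PU.1 and 6 held CEBP letters, against 13.2% and 14.1% of all such genes. Of the 11 open in both lists, 3 held PU.1 and 3 held CEBP letters, against 12.9% and 7.91% of all genes open in both. Fcgr3 is counted for both motifs, though its bases are not those of its promoter peak.

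The promoters of 3 members without a promoter peak are shown for contrast with the open ones above. They are the 150 bases before the RefSeq start (GRCm38.p6), on the strand of the gene, with the same motifs in capitals. Ctsg had no peak anywhere in its window, Ms4a3 had only an intronic peak, and Cd68 had only peaks at other genes. Cd68 held 2 AP1 matches and 1 CEBP match, and the other 2 held none in these bases. In the 300 bases counted above, Ctsg held PU.1 letters and Ms4a3 held CEBP letters.
Ctsg chr14:56102575-56102724: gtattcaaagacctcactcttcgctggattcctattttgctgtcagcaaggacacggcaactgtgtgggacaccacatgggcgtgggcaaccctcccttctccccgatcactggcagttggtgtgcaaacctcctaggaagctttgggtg
Ms4a3 chr19:11640852-11641001: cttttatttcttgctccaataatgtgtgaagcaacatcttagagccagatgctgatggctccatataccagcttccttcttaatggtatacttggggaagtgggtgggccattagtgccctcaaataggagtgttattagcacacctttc
Cd68 chr11:69666171-69666320: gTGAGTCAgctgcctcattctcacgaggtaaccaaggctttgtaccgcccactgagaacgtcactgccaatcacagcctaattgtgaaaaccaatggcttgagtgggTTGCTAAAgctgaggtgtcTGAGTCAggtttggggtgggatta

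In the 200 bp around the summits of member peaks, PU.1 letters were found in 6 of 38 distal WT peaks (15.8%) and 9 of 39 distal KO peaks (23.1%). Over all distal peaks the shares were 19.2% and 20.7%. RUNX letters were in 3 of 38 and 2 of 39, against 12.8% and 13.2%, and GATA letters in 1 of 38 and 1 of 39, against 12.0% and 11.8%. CEBP letters were in 3 of 38 and 6 of 39, against 9.59% and 9.46%, and AP1 letters in 3 of 38 and 2 of 39, against 10.4% and 10.7%. At member promoters, CEBP letters were in 5 of 20 WT peaks and 2 of 17 KO peaks, against 5.2% and 4.97% of all promoter peaks. PU.1 letters were in 3 of 20 and 3 of 17 (11.3% and 11.7% of all), RUNX letters in 0 and 2 (3.72% and 3.7%), GATA letters in 2 and 1 (3.44% and 3.58%) and AP1 letters in 2 and 1 (3.81% and 3.83%). The CEBP matches at WT promoter peaks were at Ltf, Mmp9, Fcgr3, Anxa1 and Mgst1. Many summits of a shared region lay some distance apart in the lists, so the 200 bp read in WT and KO were often not the same bases.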

How the data were processed

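Per the study's methods, reads were trimmed by the authors (Trim Galore) and aligned with Bowtie2 to the mm10 build. Picard served to take out duplicate and mitochondrial reads, and MACS2 to call peaks. The versions are not given in the sources used here. The deposited lists give, per peak, the authors' fold enrichment over the local background, −log10 p, −log10 q, a display score made from the −log10 q, and the summit. The score was not used. No peak lay beyond a chromosome end of GRCm38.p6 (0 peaks).

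Pileup and local background were solved from the deposited fold enrichment and −log10 p under the Poisson model of the caller, and a whole-number pileup fitted within 0.001 for 99.99% of peaks. This step was tested on simulated data. The KO to WT ratio was pileup over the background of each list (1.19 in WT, 1.13 in KO, the median over the 1000 lowest values), with no pseudocount and a 95% exact binomial interval. Peaks on 20 chromosomes entered, and an overlap was at least 1 bp. Shares have Wilson intervals over peaks, which are not replicates. No test was run, since each genotype had 1 list. Read depth is unknown.

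The members and gene lists were chosen with earlier results of these data known. All members were named, with values for each promoter peak, and of the other lists genes whose promoter state differed and examples of the stem cell loci. Sequences came from GRCm38.p6 and RefSeq promoters (32 of 37 members and 16433 protein-coding genes matched). They were the highest promoter region of a role group and the highest distal regions, none in exons and none for Cd14. Some sequences and genes are not reported here. The 3 promoters shown for contrast and the CpG classes were chosen after their values were seen. Alternatives changed the promoter distance (500 or 2500 bp), the start used, the window (0, 2 or 50 kb), the −log10 q (at least 10), the overlap and the scale of the ratio. RefSeq gene bodies were added after seeing the data. Ahsp of the erythroid list had no match in the annotation. Python 3 with pandas, numpy, SciPy and matplotlib was used.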

Additional observations from a re-analysis of the deposited data

How the results depend on the processing

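No paired analysis was possible because a single peak list stood for each genotype and carries no replicate number, and for the same reason no replicate could be left out in turn. Of 41 recomputed summary values, 24 stayed within the range set for a change and 17 did not, and 0 turned in sign. Requiring a −log10 q of at least 10 lowered the members with a promoter peak in both lists from 15 to 8 and those with any peak in both from 30 to 18, and raised those with none to 11 and those with peaks in 1 list only from 0 to 8. Of these 8, 7 (18.9% of the members) had peaks in KO alone under that filter (Elane, Prtn3, Lyz2, Fcgr4, Fgr, Tlr2 and Fpr1) and Ncf4 in WT alone. The shares over all protein-coding genes were 5.06% and 2.38%, and Elane and Prtn3 share peaks. Without the filter all 8 had peaks in both lists. Fpr1, for example, had a pileup of 16 in WT and 17 in KO, at a −log10 q of 7.99 and 10.1. The Fgr peak was at the promoter of Ahdc1. Over all peaks the median fold enrichment was 6.38 in WT and 7.44 in KO. Promoter peaks in 1 list only fell from 4 to 2 with a distance of 2500 bp, where Mmp9 and Prtn3 had one in both lists. At that distance Elane, which had none in the main count, also had one in both lists. All of these are granule genes. Members with no peak in the window, 7 in the main count, numbered 14 with 2 kb on each side, 15 over the gene body and 3 with 50 kb, where Mpo, Camp, Ngp and Ccr2 gained peaks in both lists. In these narrower windows 1 member (Ltf) had peaks in 1 list only, and with RefSeq gene bodies 1 member (Cx3cr1). When 50% of each peak had to overlap, the shared share fell from 79.7% to 65.2% in each list. After the −log10 q filter it was 80.6% of WT peaks and 65.8% of KO peaks. The median log2 ratio of the members was 0.16 for raw pileup and 0.38 for the authors' fold enrichment, against 0.08 and 0.26 over all regions on those scales. The median difference in covered bases was 50 bp with 50 kb windows. Read depth, which decides how low a site could be called, is unknown, and pileups near 10 carry wide counting intervals.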

Other observations

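A further list of 36 myeloid effector loci held 9 genes (25.0%) with a promoter peak in 1 list only, against 4 of 37 members (10.8%) and 5.76% of all protein-coding genes. In the WT list only were Cxcr2 (a neutrophil chemokine receptor, pileup 10), Fcer1g (the shared Fc receptor γ chain, 11), Hdc (histidine decarboxylase, 10), S100a8 (11) and S100a9 (10), which encode the subunits of calprotectin, and Prss57 (a granule serine protease, 10). In the KO list only were Alox5 (5-lipoxygenase, 8), Mrc1 (the mannose receptor, 9) and Itgb2 (the β2 integrin chain, 17). The Itgb2 peak overlapped a WT peak whose summit lay farther from the start. Apart from Itgb2, these pileups were between 8 and 11, near the lowest at which peaks were called. Irf8, a transcription factor of monocytes and dendritic cells, had 2 promoter peaks in the KO list, of 20 and 13, and none in the WT list. In the lymphoid list, Cd22 (a B cell receptor, 11) had a promoter peak in the WT list only. None of these differences has a replicate check.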
